A study of Mus musculus with 3 samples.

Results

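Interferon-stimulated genes were followed in polyadenylated RNA of mouse regulatory T cells, a CD4 lineage that depends on the transcription factor Foxp3 and limits the responses of other lymphocytes. The 43 genes were chosen by name, with earlier results of these data known. Of them, 30 came from the response to type I interferon and 13 from the GTPases that interferon gamma induces. The gene table held 55536 mouse genes, 22028 of them protein-coding. The RNA came from a male adult mouse of 4 months with a Foxp3CreERT2 allele, which drives an inducible Cre recombinase from the Foxp3 locus, and a Rosa26YFP reporter allele. The labels trace the cells to bone marrow hematopoietic cells and give no interferon or other treatment. The labels call the 3 libraries technical replicates 1, 2 and 3 of 1 biological replicate and do not say whether they came from 1 pool of RNA. No conditions were compared, and every SD and p-value measures only the spread between these libraries. They held 9299054, 9188612 and 8284381 expected counts. All 7 regulatory T cell markers and all 6 pan T cell markers reached 1 TPM (a transcript level normalised for length and for the total of the library) in every library.

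The libraries were not alike in markers of other cells. The summed TPM in libraries 1, 2 and 3 was 1681, 9.02 and 1495 for 5 erythroid markers, 1985, 237 and 1408 for 5 plasma cell markers and 45.7, 0.60 and 4.09 for 7 neutrophil markers. It was 155, 121 and 202 for 7 B cell markers, 25.0, 18.4 and 39.6 for 6 macrophage and monocyte markers, 8.26, 8.80 and 18.2 for 4 NK cell markers and 88.0, 132 and 127 for 4 stromal and endothelial markers. For 7 markers of plasmacytoid dendritic cells, a main source of type I interferon, it was 74.2, 73.2 and 104. Of these 7, Siglech was at 0.42 TPM or less, Klk1 at 0.56 TPM or less and Cd209d at 0 counts in every library, while Ly6d, Ccr9, Irf8 and Tcf4 were detected at means of 33.7, 24.2, 16.8 and 8.43 TPM. The plasma cell sum was mostly Igkc, at 1842, 201 and 1203 TPM in libraries 1, 2 and 3. Jchain and Igha were also lowest in library 2. Xbp1 was lowest in library 1, at 8.20, 30.7 and 26.0 TPM, and Sdc1 was at 0.33 TPM or less. The stromal and endothelial sum was mostly Pecam1, at 86.3, 131 and 124 TPM. Col1a1 and Cdh5 were at 0.10 TPM or less and Epcam at 3.49 TPM or less. Library 2 was thus lowest in the erythroid, plasma cell, neutrophil, B cell, and macrophage and monocyte sums. It was only just lowest in the plasmacytoid dendritic cell sum. Library 1 was lowest in the NK cell sum and in the stromal and endothelial sum. The part of other cells in the levels below was not tested.

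Interferons are secreted proteins that warn cells of infection. Type I interferons signal through the receptor of Ifnar1 and Ifnar2 to a transcription factor complex that binds the interferon-stimulated response element (ISRE). Interferon gamma signals through Ifngr1 and Ifngr2 to the gamma-activated site (GAS) in its target promoters. The type I class holds effectors that sense, degrade or restrain viral nucleic acid and particles, and many of its genes also respond to interferon gamma. The GTPase class holds the immunity-related GTPases (IRGs) and the guanylate-binding proteins (GBPs), which gather on vacuoles that contain intracellular pathogens.

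All 43 genes reached 1 TPM in every library, against 45.9% of all protein-coding genes. Because they were chosen with earlier results of these data known, this count is not a test. Of the other genes listed for the pathway, 48 of 55 interferon-stimulated genes and 5 of 8 related GTPases did so. The median level of the 43 was 76.4 TPM, beside 0.72 TPM for all protein-coding genes and 20.1 TPM for the detected ones, and 33 of the 43 lay above the latter. In these bulk libraries, fewer cells that express a gene and less RNA of it per cell cannot be told apart. The highest was Ifi27l2a, a short interferon-inducible membrane protein gene, at 1299.8, 972 and 1068 TPM in libraries 1, 2 and 3. The lowest was Oas2, an oligoadenylate synthetase that makes the activator of RNase L, at 1.21, 2.85 and 3.16 TPM. Every gene was read in each library, from 27 expected counts of Oas2 in library 1 upward.

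**Figure D1:**
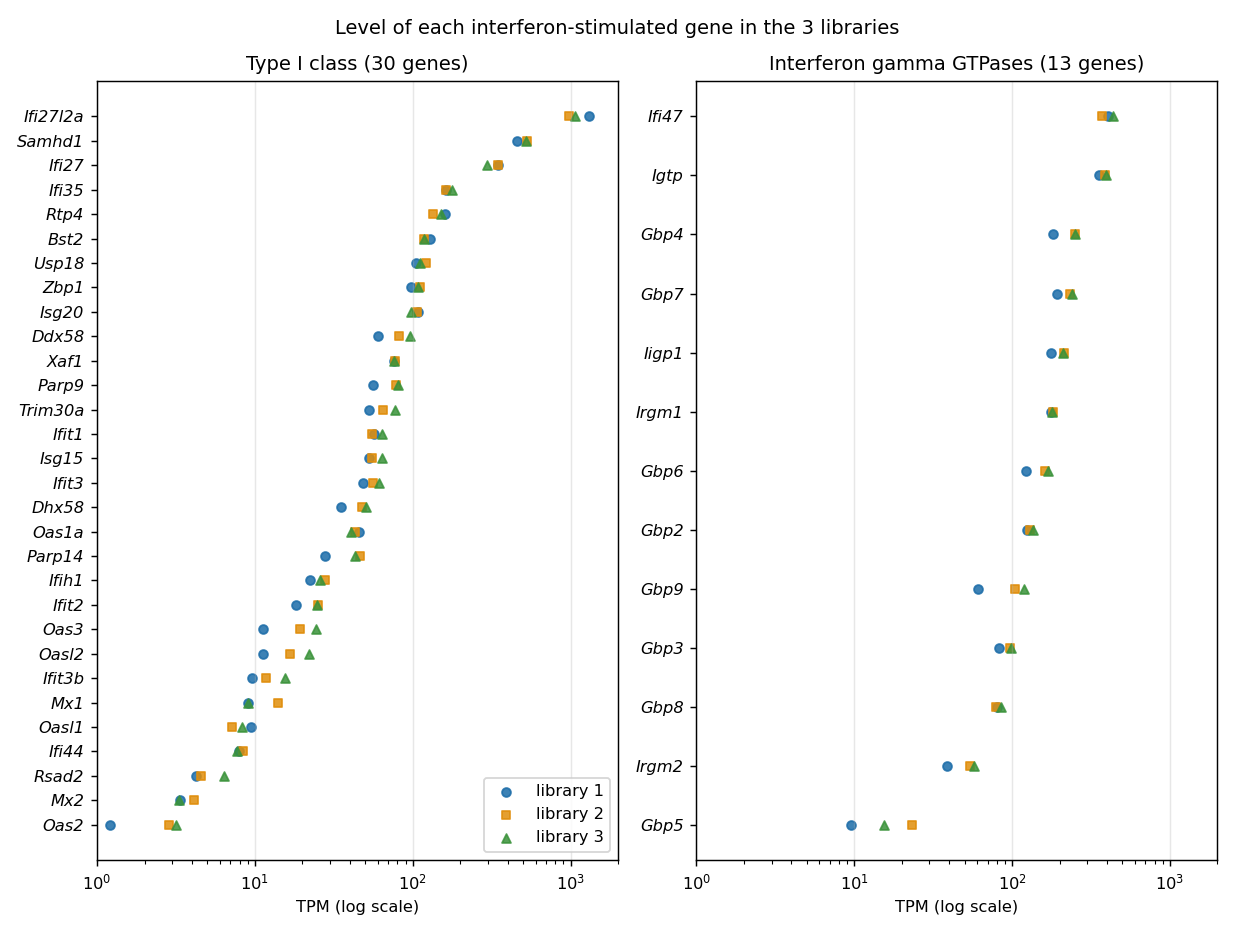
Level of each gene in TPM (horizontal log axis) in libraries 1 (circles), 2 (squares) and 3 (triangles), with the 30 type I class genes on the left and the 13 GTPases on the right, ordered by mean. Ifi27l2a lies highest at 1299.8, 972 and 1068 TPM, Oas2 lowest, and 11 of the 13 GTPases lie above the type I median of 56.2 TPM.

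The promoters of these genes were read for the ISRE core, GAAANNGAAA or its reverse complement TTTCNNTTTC, where N is any base, and for the GAS letters TTCNNNGAA, which read the same on both strands. Both were sought on both strands in the 250 bases before and 50 after each RefSeq gene start on GRCm38.p6. Of the 43 genes, 27 were in the promoter table. The ISRE core was found in 18 of the 27, beside 3.99% of the 27025 genes in that table. It was found in 7 of 8 GTPases, the exception being Ifi47, and in 11 of 19 type I class genes. The GAS letters were found in 10 of the 27, 4 GTPases and 6 type I class genes, beside 9.55% of all genes. Bst2, Gbp5, Gbp7, Igtp, Irgm2 and Oas1a held both. These are matches of letters and not measured binding. The windows below show where the cores lie in genes of both classes, and the fixed letters of the core are alike by the search itself. Each gives bases around a core in capitals, 5′ to 3′ on the strand of the gene, and ends at or before the gene start. Igtp and Gbp7 were printed because they are among the 5 highest GTPases, and the others were chosen after the matches were seen. Of the 5 highest type I class genes, Samhd1 and Ifi35 had no core in this window, and Ifi27l2a, Ifi27 and Rtp4 were not in the promoter table.
Igtp: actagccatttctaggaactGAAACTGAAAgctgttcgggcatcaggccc
Irgm2: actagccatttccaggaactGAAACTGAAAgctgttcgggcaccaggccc
Irgm1: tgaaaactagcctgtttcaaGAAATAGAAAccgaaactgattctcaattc
Gbp2: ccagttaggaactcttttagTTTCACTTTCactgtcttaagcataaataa
Gbp7: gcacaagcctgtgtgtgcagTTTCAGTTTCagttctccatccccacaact
Isg15: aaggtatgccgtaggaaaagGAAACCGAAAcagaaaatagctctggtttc
Ifit1: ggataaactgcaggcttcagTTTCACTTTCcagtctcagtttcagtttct
Ifit3: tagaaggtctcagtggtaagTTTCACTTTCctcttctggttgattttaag

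The Igtp window lies at chr11:58199502-58199551 on the plus strand and the Irgm2 window at chr11:58214893-58214942 on the plus strand. The 2 windows differed at 2 of 50 bases. The Irgm1 window is chr11:48871421-48871470 on the minus strand and holds a further overlapping core. The Gbp2 window is chr3:142620584-142620633 and the Gbp7 window chr3:142530263-142530312, both on the plus strand. The Isg15 window, chr4:156200861-156200910 on the minus strand, is the middle of 3 overlapping cores. The Ifit1 window is chr19:34640765-34640814 on the plus strand and holds a further core, left in small letters near its end. The Ifit3 window is chr19:34583353-34583402, also on the plus strand. Ifit3b, the near copy of Ifit3, had the same 50 bases at chr19:34607749-34607798.

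**Figure D2:**
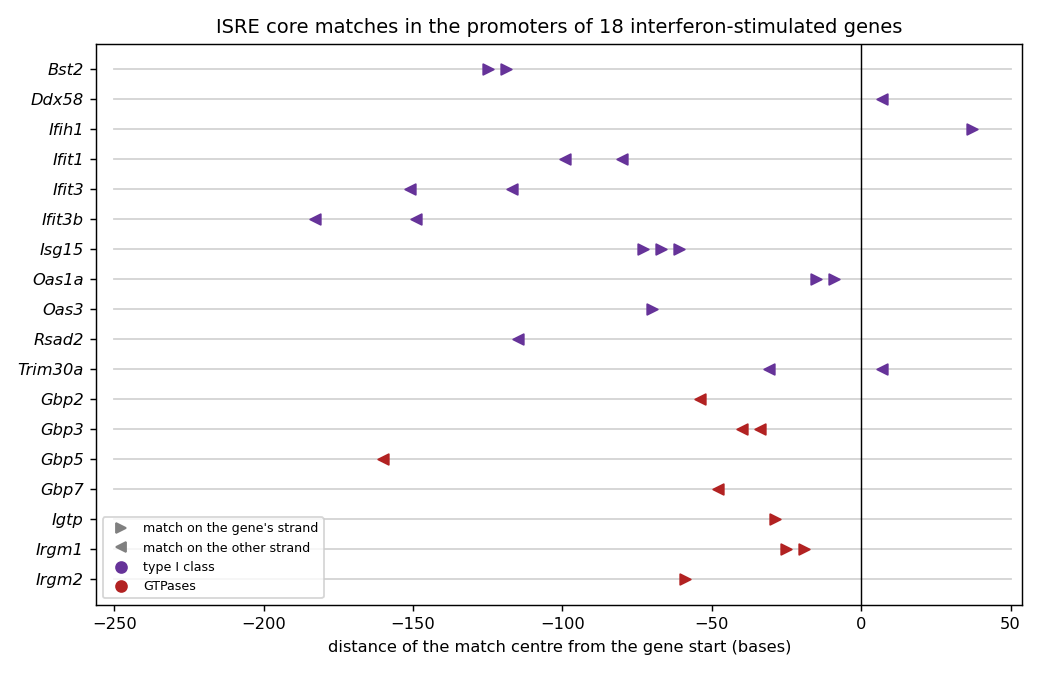
Distance of each ISRE core match from the RefSeq gene start (horizontal axis, bases, negative before the start) in the 18 genes with a match, type I class in purple and GTPases in red, arrowheads giving the strand of the match. In 16 of the 18 genes a match lies before the start.

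Among the GTPases, the IRGs bind and remodel membranes of pathogen vacuoles. Ifi47, an IRG at chr11:49076587-49096974 (mm10), was the highest GTPase at 407, 373 and 435 TPM. Igtp, the IRG also known as Irgm3, which regulates the effector IRGs, followed at 354, 391 and 392 TPM. Iigp1, an effector IRG that is loaded on parasite vacuoles, stood at 177, 213 and 211 TPM. The TPM of these 3 genes had coefficients of variation (CVs) between libraries of 7.60%, 5.67% and 10.02%. Irgm1, a regulatory IRG linked to autophagy and to the survival of lymphocytes, stood at 176.0, 181 and 179 TPM, a CV of 1.35%. Irgm2, another regulatory IRG, was the lowest of the 5 at 38.9, 53.8 and 57.1 TPM. It shares 162 exon bases with its neighbour Igtp, and 11.8% of all 50-base stretches of Igtp transcripts also occur in Irgm2, so the division of reads between them is uncertain.

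The GBPs assemble into coats on pathogens and their vacuoles. The 8 measured here fall into 2 gene clusters of mm10, Gbp2, Gbp3, Gbp5 and Gbp7 at chr3:142493978-142638008 and Gbp4, Gbp6, Gbp8 and Gbp9 at chr5:105014150-105293698. On chromosome 5, Gbp4 stood at 182, 249 and 250.5 TPM and Gbp6 at 122, 161 and 169 TPM. Gbp8 stood at 80.7, 79.0 and 85.1 TPM. Gbp9 stood at 60.5, 105 and 118 TPM, with library 1 well under the other libraries. In this cluster the order from Gbp4 to Gbp6 was the same in every library, and Gbp8 and Gbp9 changed places between library 1 and libraries 2 and 3. On chromosome 3, Gbp7 stood at 193, 232 and 239 TPM, Gbp2 at 124, 131 and 136 TPM, and Gbp3 at 82.1, 96.4 and 99.0 TPM. Gbp5, which promotes inflammasome assembly in macrophages, was the lowest GTPase at 9.57, 23.3 and 15.6 TPM. Mean levels ran from 81.6 to 227 TPM in the chromosome 5 cluster and from 16.1 to 221 TPM in the chromosome 3 cluster, where Gbp5 was the only GTPase under the median of detected protein-coding genes. The value of Gbp6 depends on the division of reads, since 70.7% of the 50-base stretches of its transcripts occur in another gene, chiefly Gm43302 and Gbp10. That share was 18.1% for Gbp8, 12.7% for Gbp7 and at most 8.05% for the other 5 GBPs.

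In the type I class, the highest levels belonged to genes outside the IFIT, OAS and Mx families. Samhd1, which hydrolyses the nucleotides that viruses need for reverse transcription, stood at 456, 531 and 520.1 TPM. Ifi27, the neighbour of Ifi27l2a on chromosome 12, stood at 346, 345 and 293 TPM. Ifi35 stood at 162, 161 and 177 TPM and Rtp4, a chaperone-like gene of chemosensory receptors, at 161, 135 and 151 TPM. These 4 and Ifi27l2a were the 5 highest of the class, and all but Rtp4 exceeded the GTPase median of 151 TPM. Other genes above 100 TPM were the virion tether Bst2 at 122 ± 6.07 (SD, n = 3), the ISG15 protease Usp18 at 113 ± 8.77, the nucleic acid sensor Zbp1 at 105 ± 7.02 and the exonuclease Isg20 at 104 ± 5.50.

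The classic antiviral families were detected at lower levels. The 12 genes of the IFIT, OAS and Mx families with Rsad2 had a median of 14.4 TPM, ranging from 2.41 to 58.6, and 4 of the 12 exceeded the median of detected protein-coding genes. In each library 11 of the 13 GTPases lay above all 12 of them. Of the IFIT family, which binds viral RNA ends, Ifit1 stood at 58.6 ± 4.36 TPM (SD, n = 3), Ifit3 at 55.0 ± 6.43, Ifit2 at 22.6 ± 3.85 and Ifit3b at 12.3 ± 2.97. Ifit3 and Ifit3b share 51.2% and 45.0% of their 50-base stretches with other genes, chiefly each other. Of the oligoadenylate synthetases, Oas1a stood at 43.1 ± 2.34 TPM. Oas1g, with which Oas1a shares 57.6% of its 50-base stretches, was given 0.27 TPM, and the division of reads between them is uncertain. Oas3 stood at 11.3, 19.3 and 24.4 TPM, and the OAS-like genes Oasl2 and Oasl1 at 16.6 ± 5.36 and 8.29 ± 1.13 TPM. Mx1, a dynamin-like GTPase that traps influenza virus, stood at 10.7 ± 2.86 TPM and its paralog Mx2, annotated in mm10 as a polymorphic pseudogene, at 3.60 ± 0.44. Rsad2 (viperin), which makes a chain-terminating nucleotide, stood at 5.09 ± 1.16 TPM.

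The cytosolic RNA sensors ranged over 3 genes from Ddx58 (RIG-I) at 60.0, 81.6 and 96.2 TPM to Dhx58 (LGP2) at 44.3 ± 8.15 and Ifih1 (MDA5) at 25.4 ± 2.72 TPM (SD, n = 3). Isg15, the ubiquitin-like modifier of the pathway, stood at 57.4 ± 5.57 TPM, under Usp18, its protease. Parp9 stood at 71.5 ± 13.8 TPM and Parp14 at 27.9, 46.2 and 42.9 TPM, 2 ADP-ribosyltransferase-like genes. Xaf1, a proapoptotic gene, stood at 76.4 ± 0.43 TPM, Trim30a, a ubiquitin ligase of the TRIM family, at 64.7 ± 12.4, and Ifi44 at 8.01 ± 0.34.

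The 2 classes were then compared within each library. The median GTPase stood at 124, 161 and 169 TPM and the median type I class gene at 50.3, 55.4 and 62.3 TPM. The GTPase median was higher in all 3 libraries. This order holds for the genes chosen, and whether either interferon acted on them was not tested. The 8 other genes of these GTPase families on the pathway list, described below, had a median of 39.8 TPM. The 55 other interferon-stimulated genes on it had a median of 44.8 TPM. On the log2(TPM + 1) scale, the type I median minus the GTPase median was -1.29, -1.52 and -1.43, a mean of -1.41 ± 0.12 (SD, n = 3). Of the GTPases, 11 of 13 exceeded the type I median of 56.2 TPM, and 4 of 30 type I class genes exceeded the GTPase median. No test was made over genes, since genes are not replicates. Without Bst2, Samhd1, Parp9, Parp14, Zbp1, Xaf1 and Ifi35, 7 of the type I class genes that interferon gamma is also known to raise, the difference was -1.90. All of these but Parp14 lay above the type I median, so leaving them out had to lower it. The wider difference is therefore no separate result.

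Summed levels ordered the classes the other way, but they ran over 30 type I class genes and only 13 GTPases. Their ratio depends on these numbers and does not compare the classes per gene. The type I class summed to 3483, 3347 and 3448 TPM and the GTPases to 2006, 2288 and 2386 TPM, a ratio of 1.74, 1.46 and 1.44. Ifi27l2a alone gave 37.3%, 29.0% and 31.0% of the type I sum. Without the highest gene of each class the ratio fell to a mean of 1.28, and without the 7 genes named above it was 1.06. The type I class had a few very high genes over a low median, and the GTPases were more even.

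**Figure D3:**
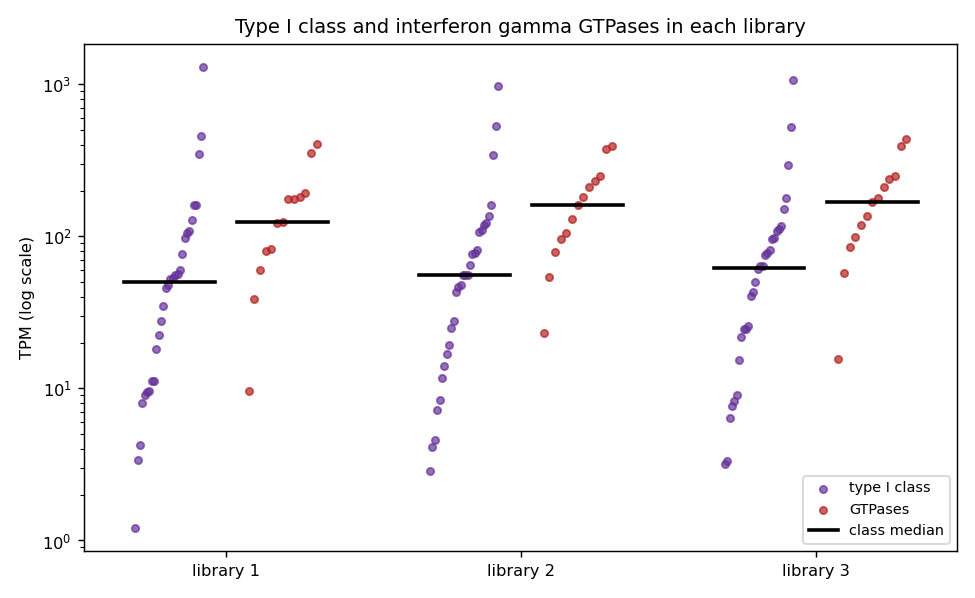
TPM of each gene (vertical log axis) in each library, type I class in purple and GTPases in red, with the class median as a black bar. The GTPase median is higher in each library, at 124, 161 and 169 TPM against 50.3, 55.4 and 62.3 TPM, while single type I class genes reach higher.

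The upstream pathway was described from a list of 121 genes, of which 120 were matched and 89 reached 1 TPM in every library. Of 21 interferon genes, only Ifng did so, at 6.23, 8.35 and 4.51 TPM. Ifnb1, all Ifna genes listed and the others to a total of 19 had 0 counts in every library, which allows a share of up to 3.23e-05%, 3.26e-05% and 3.62e-05% of the counts, for counting error only. The receptor chains for both interferons were detected. Ifngr1 stood at 326 ± 16.3 TPM (SD, n = 3), Ifnar1 at 79.0 ± 14.3 and Ifnar2 at 29.2 ± 6.13. Ifngr2, the signalling chain of the gamma receptor, stood at 9.87, 27.9 and 26.0 TPM, lower in library 1. The lambda receptor chain Ifnlr1 was at 0 counts in every library, while Il10rb, its partner, stood at 109 ± 7.33 TPM.

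Of the signalling genes beneath the receptors, the kinase Jak1 was the highest of 5 listed, all detected, at 197, 352 and 329.8 TPM, lowest in library 1. Irf9, a DNA-binding subunit of the type I response, stood at 165 ± 22.1 TPM (SD, n = 3) and Stat2 at 65.7 ± 21.5. Jak2, a kinase of the gamma receptor, was the lowest of the 5 at 10.5 ± 1.17. Among 7 interferon regulatory factors, Irf1, an early target of interferon gamma, stood highest at 302 ± 10.9 TPM and Irf7, which amplifies type I interferon production, at 158 ± 29.1, with Irf4 lowest at 13.9 ± 4.58. All 5 feedback inhibitors were detected, from the phosphatase Ptpn6 at 221 ± 40.5 TPM down to Socs1 at 1.81 ± 0.46.

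Further targets of the pathway also spanned a wide range of levels. Of 8 other genes of the IRG, GBP and related GTPase families, not all of them known to respond to interferon gamma, 5 were detected, from Tgtp2 at 333 ± 10.03 TPM and Tgtp1 at 273 ± 6.67 (SD, n = 3) to Gbp2b at 20.6 ± 6.52. Of 55 other interferon-stimulated genes, 48 were detected, led by Shisa5 at 4786 ± 631 TPM. Cxcl10, a chemokine induced by interferon gamma, stood at 19.7, 18.7 and 10.2 TPM, while Cxcl9 and Cxcl11, the related chemokines, were at 0.34 TPM or less in every library. All 13 antigen presentation genes were detected, from B2m at 6610.4 ± 867 TPM to Ciita, the master regulator of class II genes, at 5.52 ± 2.73.

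Differences between libraries were tested on expected counts scaled by TMM, a scaling that assumes most genes do not differ, with a chi-square test of homogeneity and Benjamini-Hochberg adjustment over all genes with 30 or more counts. The test asks whether counts differ by more than counting error and compares the libraries, not conditions. It called 30 of the 43 genes, 69.8%, beside 54.3% of the 13071 genes tested. The test calls small differences more readily in genes with many counts, so shares called do not compare the size of the spread. The median ratio of the highest to the lowest scaled count was 1.27 for the 43 genes and 1.37 for all genes tested. Of the type I class 19 of 30 were called and of the GTPases 11 of 13. Among the 13 not called were Gbp7, Gbp3, Isg15, Ifit2, Ifit3, Mx1, Mx2 and 2 of the 3 cytosolic RNA sensors, Dhx58 and Ifih1 (adjusted p = 0.673 and 0.942). The highest scaled count was in library 1 for 23 of the 43 genes, 53.5%, beside 39.7% of all genes tested. The lowest was in library 2 for 22, 51.2%, beside 27.8%.

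Ifi47 and Irgm1, with TPM CVs of 7.60% and 1.35%, were called on scaled counts, Ifi47 at 4962, 3622 and 4307 (ratio 1.37, adjusted p = 4.19e-46) and Irgm1 at 2859, 2328 and 2359 (ratio 1.23, adjusted p = 4.29e-15). Igtp and Iigp1 were also called (adjusted p = 3.23e-11 and 0.00959).

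The 5 genes with the largest ratio of highest to lowest scaled count, among those with 300 or more counts, were Oas3, Gbp5, Parp14, Ifi27l2a and Gbp9. Oas3 had scaled counts of 369, 555 and 690.1, a ratio of 1.87 (adjusted p = 4.51e-20). Gbp5 had 219.8, 409 and 308, a ratio of 1.86 (adjusted p = 1.65e-12). Library 1 was lowest for both, and library 2 highest for Gbp5 only. Parp14 had 740.0, 1074 and 1291, a ratio of 1.74 (adjusted p = 5.78e-31), and Gbp9 had 1606, 2426 and 2709, a ratio of 1.69 (adjusted p = 2.55e-61). Ifi27l2a went the other way, with 3049, 1797 and 2006 and a ratio of 1.70 (adjusted p = 2.43e-85). Oas2, with only 27, 38 and 60 expected counts, had a ratio of 2.33 (adjusted p = 0.000692).

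These differences moved with gene length. Among the 21 shorter genes, of 463 to 2175 bases, library 1 had the highest scaled count in 16 and the lowest in 2. Among the 22 longer genes, of 2203 to 4435 bases, it had the highest in 7 and the lowest in 12. The same split of all genes is not given here, so the pattern cannot be read as particular to the 43. The median length was 2634 bases for the GTPases and 1938 bases for the type I class. With scaling inside 10 bins of gene length, 31 of the 43 were called, 72.1%, while the share called over all genes fell from 54.3% to 44.6%. Gbp7, Gbp3, Ifih1, Isg15, Ifi44 and Zbp1 were then called (adjusted p = 4.02e-40, 0.0013, 0.00245, 0.00356, 0.0157 and 0.0215), and Bst2, Usp18, Isg20, Parp9 and Irgm2 were no longer called. The 5 largest ratios shrank under this scaling, to 1.63 for Gbp5, 1.51 for Oas3, 1.41 for Parp14, 1.37 for Gbp9 and 1.17 for Ifi27l2a, and all 5 were still called (adjusted p = 3.22e-08, 9.99e-09, 1.1e-11, 2.45e-20 and 6.23e-06). The part of transcript length in these differences beyond this scaling was not tested.

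**Figure D4:**
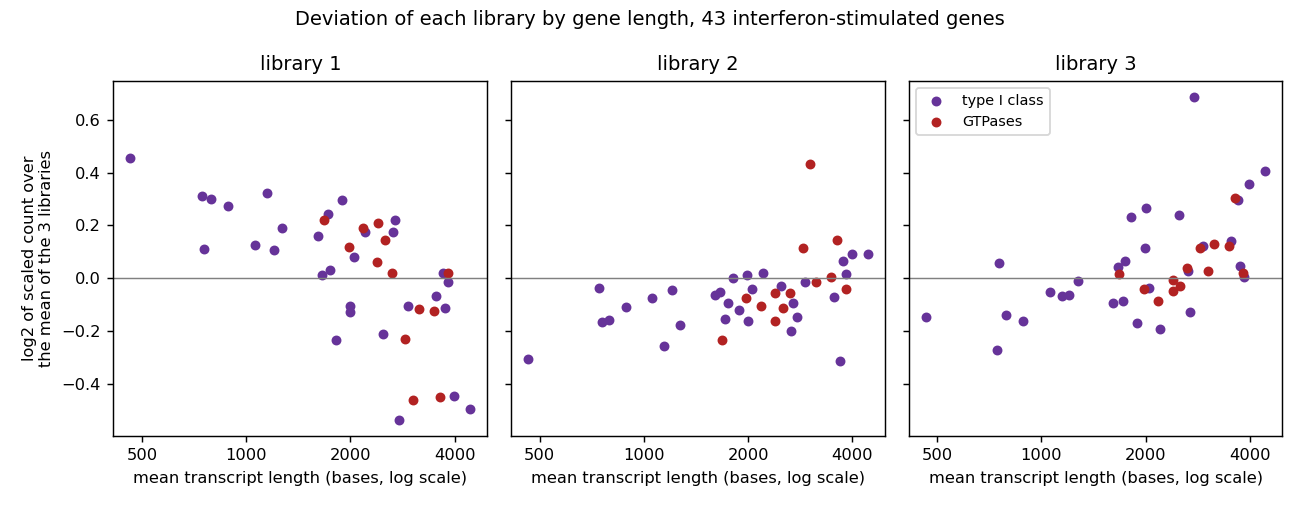
Log2 of the scaled count of each gene over its mean in the 3 libraries (vertical axis) against mean transcript length in bases (horizontal log axis), 1 panel for each library, type I class in purple and GTPases in red. In library 1 the 463-base Ifi27l2a lies highest and Oas3, the longest at 4435 bases, lies low, while Gbp7, at 3823 bases, lies near 0.

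TPM ordered the libraries differently from scaled counts. Library 1 had the lowest TPM for 29 of the 43 genes, 11 of 13 GTPases among them. It had the lowest scaled count for 14, 32.6%, beside 40.7% of all genes tested. The share of all genes with the lowest TPM in library 1 is not given here, so the TPM count cannot be read as particular to the 43. In 19 of the 43 genes the library with the highest TPM was not the one with the highest scaled count. Igtp shows this, with library 1 lowest in TPM at 354 but highest in scaled count at 5191 against 4533 and 4644. A direction between libraries is therefore given here only with its scale.

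Libraries 2 and 3 were compared without library 1, and 16 of the 43 genes were called, 37.2%, beside 17.5% of all genes tested. These shares too depend on the counts of the genes. Of the 16, 14 were higher in library 3 and 2, Gbp5 and Ifi27, were lower. Over all genes 1209 were higher and 933 lower in library 3. The median ratio of library 3 to library 2 was 1.07 over the 43 genes and 1.00 over all genes. The calls for Oas3, Parp14, Gbp9, Gbp5 and Ifi27l2a remained (adjusted p = 0.00172, 0.000163, 0.00126, 0.00235 and 0.00754), but their ratios of library 3 to library 2 were nearer to 1, at 1.24, 1.20, 1.12, 0.753 and 1.12. Ddx58, at scaled counts of 1238 and 1491, was higher in library 3 (adjusted p = 3.21e-05), and Samhd1, at 6407 and 6413, was not called (adjusted p = 0.991).

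Part of the signal lay in transcripts that are not annotated as coding. Of the 37 genes with more than 1 annotated transcript, the median share of TPM in protein-coding transcripts was 75.0%, beside 84.2% for 9355 other detected protein-coding genes. The share was under 50% in 7 of the 37, 18.9%, and in 17.9% of the other genes. Mx2, among the 7, is annotated as a polymorphic pseudogene, as is its leading transcript Mx2-202, while the 9355 other genes are all protein-coding. For the GTPases the median was 99.7% and for the type I class 70.6%. Igtp, Irgm2, Ifi47, Gbp2 and Gbp7 had 100% of their TPM in coding transcripts in every library. Gbp4 was the GTPase under 50%, at 49.4%, 37.9% and 43.4%, and Gbp4-202, annotated for nonsense-mediated decay, took 53.7% ± 5.21 (SD, n = 3) of its TPM. In the type I class, Ddx58 had 39.5% ± 0.89 in coding transcripts and the rest in processed transcripts. Retained-intron transcripts took 57.2% of Oas2 and 50.8% of Parp14, and decay transcripts 52.9% of Mx1.

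**Figure D5:**
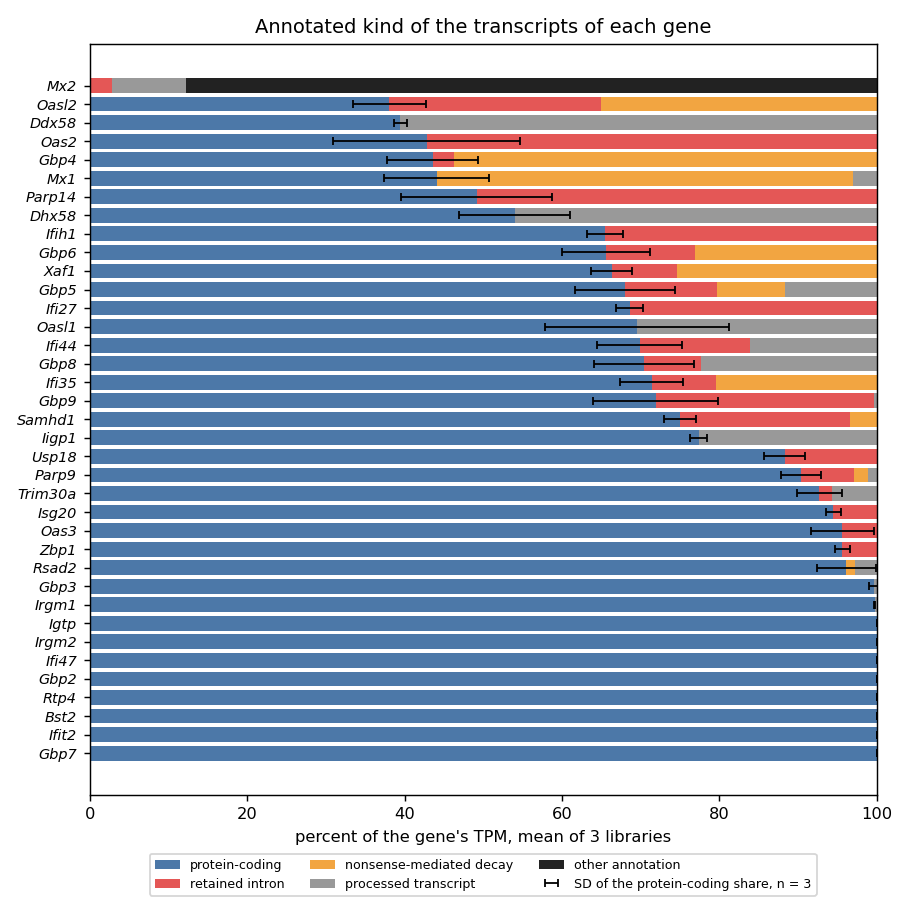
Percent of the TPM of each gene, mean of 3 libraries, by the annotated kind of transcript (coloured parts of each bar) for the 37 genes with more than 1 annotated transcript, with the SD of the protein-coding share as black bars. Mx2, Oasl2, Ddx58, Oas2, Gbp4, Mx1 and Parp14 have less than 50% in protein-coding transcripts, and Gbp7, Gbp2 and Ifi47 have 100%. Mx2 is annotated as a polymorphic pseudogene.

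The leading transcript held 50% or more of the TPM in 29 of the 37 genes, and 34 had the same leading transcript in the second transcript table. In 6, Mx2 among them, the leading transcript was not annotated as coding. The shares come from a model that divides shared reads. Oasl1-202, for example, held 50.7% ± 24.3 (SD, n = 3) and Zbp1-202 held 69.3% ± 0.96.

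The levels also depended on the table. Against whole-number counts on the GENCODE M4 annotation, 1 of the 41 genes compared (Gbp5 and Gbp6 were not analysed here) differed by more than 2-fold in every library, beside 13.8% of all genes compared. It was Irgm2, at 0.45, 0.47 and 0.46 times its value in the main table, the gene that shares exon bases with Igtp. Ifi27 and Isg15 were higher in the M4 counts, by 1.62, 1.63 and 1.65 times and by 1.70, 1.65 and 1.58 times. In the second transcript table TPM values were lower for most genes, where the pseudogene Gm29013, at 0 TPM in the main table, took 260520, 190791 and 195674 TPM. The 43 genes stood at a median of 0.504 times their main TPM there, detected protein-coding genes at 0.551 times and Ifi27l2a at 0.864 times. With that table the summed ratio of the type I class to the GTPases was 2.15.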

How the data were processed

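Polyadenylated RNA of regulatory T cells was measured in 3 libraries, grouped as 1 group by the labels. The authors deposited a gene table with expected counts, TPM and FPKM and the bounds of a TPM signal interval, from a transcriptome alignment to mm10 with GENCODE M21, per the file headers and the deposited readme. A transcript table with the percent of gene TPM, and a second transcript table with estimated counts and TPM, were also deposited by the authors, as were whole-number counts on GENCODE M4. The sources used here give neither the tools and versions of these steps nor whether counting used strand. Entries naming no mouse gene (0.117%, 0.124% and 0.135% of counts) were left out.

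Symbols were matched through the transcript table. Expected counts were rounded, scaled by TMM (edgeR 4.0.16, R 4.3.3) and tested by chi-square with Benjamini-Hochberg adjustment over all genes with 30 or more counts, at a threshold of 0.05, and the test was checked on simulated data. M4 counts were compared as CPM of shared genes, centred on the median ratio, at 1 CPM or more. Shared sequence was counted as 50-base stretches of transcripts that occur in another gene. Python 3.11.15, numpy 2.4.6, scipy 1.17.1 and pandas 2.3.3 were used, and DESeq2 1.42.0 gave alternative size factors. Values in every library are given for the 5 highest of each class, every gene of the GTPase class, genes under 1 TPM in any library (none was) and the 5 largest ratios between libraries. The genes and lists were chosen with earlier results of these data known. Ddx58, Oas2, Oasl1, Cxcl10, the marker sums and other single values outside this rule were chosen after their values were seen. An item of the pathway list is not reported here. Promoters are RefSeq's on GRCm38.p6. Alternatives were the scaling, count minimum, table, pseudocount, detection threshold and each library left out.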

Additional observations from a re-analysis of the deposited data

How the results depend on the processing

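With 1 group there was no test between conditions. No paired analysis was possible because all libraries belong to 1 group. The type I minus GTPase difference was -1.28 with the second transcript table and -1.90 without 7 genes that interferon gamma also raises, and -1.47 to -1.36 with each library left out. The ratio of sums was 2.15, 1.06 and, without the highest gene of each class, 1.28; with each library left out it was 1.45 to 1.60. Called differences between libraries numbered 29 to 34 under the other scalings, minimums and tables, and 16 to 28 with each library left out, lowest without library 1. The cause of the shifts with the second table was not tested. At 1.5-fold, 3 genes differed between gene tables, and 8 genes had an ISRE core on the strand of the gene alone. All 43 genes stayed detected in each alternative except the second transcript table (42) and a threshold of 5 TPM (40). Depth limits the low genes, such as Oas2, most, and the 1 biological replicate limits every value to this sample.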
